A study of Mus musculus with 36 samples.

Results

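The interferon-induced genes examined here are 40 listed genes, chosen by name, whose transcripts are known to rise when cells meet an interferon, together with the IFN-γ receptor chains and transcription factors of the pathway. The genes and their division into lists were chosen with earlier results of these data known. They were found on the array by gene symbol, and a gene with several probe sets was read from the one of highest mean (36 arrays). Of the 40, 37 had a probe set annotated with that symbol alone, among 18193 such genes in the whole series, and 34 passed the filter on low values (log2 intensity over 5 in at least 3 arrays). Gbp4, Isg15 and Ifi44 were not analysed here because no probe set carried their symbol alone. Socs1, Oas3 and Mx2 were measured but stayed under the filter, at highest values of 2.26, 4.33 and 3.89. The 34 tested genes comprised 15 known mainly as IFN-γ targets, 16 known mainly as type I interferon targets, Cxcl10, which both interferons induce, and Ifngr1 and Ifngr2.

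Interferons are secreted signals of infection and immune activation. Type I interferons act on nearly all cells through a receptor that activates a complex containing STAT2 and IRF9, which binds interferon-stimulated response elements (ISRE) upstream of antiviral genes such as the Ifit and Oas families. IFN-γ, made mainly by T and natural killer cells, acts through the IFNGR1 and IFNGR2 chains, and its signal reaches gamma-activated sites (GAS) and the transcription factor IRF1, which in turn drives guanylate-binding proteins, antigen-processing genes and the chemokine CXCL9. The gene sets overlap, so a gene is called a target of one or the other by what it is mainly known for. In asthmatic lung, IFN-γ is associated with severe disease.

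Lung RNA was hybridised to 1 single-colour Affymetrix array per sample, and the values are log2 intensities. OVA mice were sensitised with 50 µg ovalbumin injected into the peritoneum 3 times (days 1, 4 and 7). Starting at day 12 they were given 20 µg through the nose every week over 9 weeks. PBS mice received phosphate-buffered saline on the same schedule. All mice were labelled female C57BL/6, and their age is given only as matched. KitWsh_MCigeR, KitWsh_MCifngR and KitWsh_MC mice were KitWsh mice with engraftments labelled MCigeR, MCifngR and MC. Nothing used here defines these codes, of which MCigeR and MCifngR are read as mast cells from donors lacking the IgE receptor and the IFN-γ receptor, and MC as mast cells from wild-type donors. In this reading only the engrafted mast cells of KitWsh_MCifngR mice lack the IFN-γ receptor, and the rest of the mouse keeps it. The genotype label of KitWsh_MCigeR mice also names FcεRIγ deficiency, which could be that of the recipients. KitWsh mice, homozygous for the W-sash allele of Kit, are deficient in mast cells and had no engraftment. WT mice were wild type without engraftment. Each OVA group had 4 arrays, the WT PBS group had 4, and each other PBS group had 3. Whether each sample came from its own animal is not stated, so the p-values cover only sample-to-sample spread, which may be technical.

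KitWsh_MCigeR PBS array 2 was left out of the main analysis, because its median correlation with the other arrays was 0.545, against 0.882 to 0.9705 for the other 35, and its 3′ minus 5′ difference of the beta-actin control was 8.43, against 1.17 to 6.23. The KitWsh_MCigeR PBS group therefore had 2 arrays, and counts with all 36 arrays are given beside the counts of called genes. On 3 arrays, the libraries labelled WT OVA array 4 and KitWsh_MCifngR OVA arrays 2 and 3, Y-linked transcripts averaged 7.28 to 7.71, against 2.19 to 2.25 on the other 32, although all mice are labelled female. Kit lay between 4.52 and 7.52 on the 27 arrays of engrafted and KitWsh mice, against 9.86 to 10.97 on 7 WT arrays, and read 6.90 on the library labelled WT OVA array 4. Lung markers were present on all 35 arrays, with Sftpc at 14.95 to 15.51 and Scgb1a1 at 15.37 to 15.89. The beta-actin difference averaged 2.92 to 3.90 in the 4 KitWsh_MC and KitWsh_MCifngR groups and 1.29 to 2.07 in the other 6 groups. A fit with it as a covariate was among the alternatives. Because it differed with the kind of mouse, that fit cannot fully separate it from kind.

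RefSeq promoter windows of 300 bases (GRCm38.p6, 250 before to 50 after the start) were found for 32 of the 40 genes. The ISRE-like pattern, GAAA followed by any 2 bases and GAAA again, searched on both strands, occurred in 15 of the 32 (46.9%), against 3.99% of all 27025 genes with a window. It was found in 6 of 14 IFN-γ targets and in 8 of 15 type I targets. The GAS-like pattern TTCNNNGAA was present in 7 of the 32 (21.9%), against 9.55% of all genes. A match is a description of the letters and not a site shown to be used, and a window without one says only that these letters are not in it. The 4 stretches below belong to genes whose transcripts rose with challenge, and each gives the 250 bases before the start, 5′ to 3′ on the gene's strand, with pattern matches in capitals. Cxcl10 lies at chr5:92348890-92349139 on the minus strand and holds 1 ISRE-like match. Igtp lies at chr11:58199306-58199555 on the plus strand and holds a GAS-like match followed by an ISRE-like match, 45 and 34 bases before the start. Irgm1 lies at chr11:48871421-48871670 on the minus strand and holds 2 overlapping ISRE-like matches in a run of 16 bases. Irf1 lies at chr11:53769764-53770013 on the plus strand and holds 1 GAS-like match, 90 bases before the start.
Cxcl10: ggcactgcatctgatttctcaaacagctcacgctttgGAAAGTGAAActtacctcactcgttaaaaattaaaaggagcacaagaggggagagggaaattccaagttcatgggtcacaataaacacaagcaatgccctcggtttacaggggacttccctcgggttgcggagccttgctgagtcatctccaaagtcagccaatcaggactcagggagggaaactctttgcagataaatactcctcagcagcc
Igtp: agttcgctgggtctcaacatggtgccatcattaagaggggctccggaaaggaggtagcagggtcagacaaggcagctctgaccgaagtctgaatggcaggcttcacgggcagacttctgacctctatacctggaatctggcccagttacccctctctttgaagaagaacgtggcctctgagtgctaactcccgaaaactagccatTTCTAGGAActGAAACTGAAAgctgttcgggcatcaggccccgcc
Irgm1: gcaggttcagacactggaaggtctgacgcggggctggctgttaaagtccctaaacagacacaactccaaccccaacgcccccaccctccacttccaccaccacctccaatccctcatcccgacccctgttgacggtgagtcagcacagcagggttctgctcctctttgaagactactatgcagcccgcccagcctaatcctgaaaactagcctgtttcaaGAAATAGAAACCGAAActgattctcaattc
Irf1: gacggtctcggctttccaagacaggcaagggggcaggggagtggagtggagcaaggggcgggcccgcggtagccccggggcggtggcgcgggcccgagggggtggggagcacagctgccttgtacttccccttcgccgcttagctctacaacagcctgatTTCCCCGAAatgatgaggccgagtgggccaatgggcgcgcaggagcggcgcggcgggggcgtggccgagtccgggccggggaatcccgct
Of the genes called in the mean over kinds below, 9 had a window, and 4 of these held the ISRE-like pattern (44.4%). Of the tested genes that were not called, 19 had a window and 8 of these held it (42.1%).

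Averaged over the 5 kinds of mice, ovalbumin challenge raised most of the IFN-γ targets, and none of the type I targets passed the same test. With limma's moderated test and Benjamini-Hochberg adjustment over all 11565 genes tested, 11 of the 34 genes were called higher in OVA than in PBS lungs and 0 lower, against 12.2% of all genes called higher, 15.4% called lower and 27.6% called in either direction. The 11 comprised 10 of the 15 IFN-γ targets and Cxcl10. Of the 16 type I targets 0 were called, and 3 of them had an unadjusted p under 0.05. The median log2 difference was 0.45 over the IFN-γ targets and 0.11 over the type I targets, against -0.02 over all genes tested. These medians were 0.63 and 0.22 with all 36 arrays, against 0.06 over all genes. The IFN-γ targets were higher on average in OVA lungs in 14 of 15 cases and the type I targets in 12 of 16. The difference between the lists was not itself tested, and it depends on lists drawn up with earlier results of these data known. The 11 calls were kept with all 36 arrays, where 13 of 34 genes and 16.6% of all genes were called, and without the 3 arrays that go against their labels, where 16 were.

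**Figure D1:**
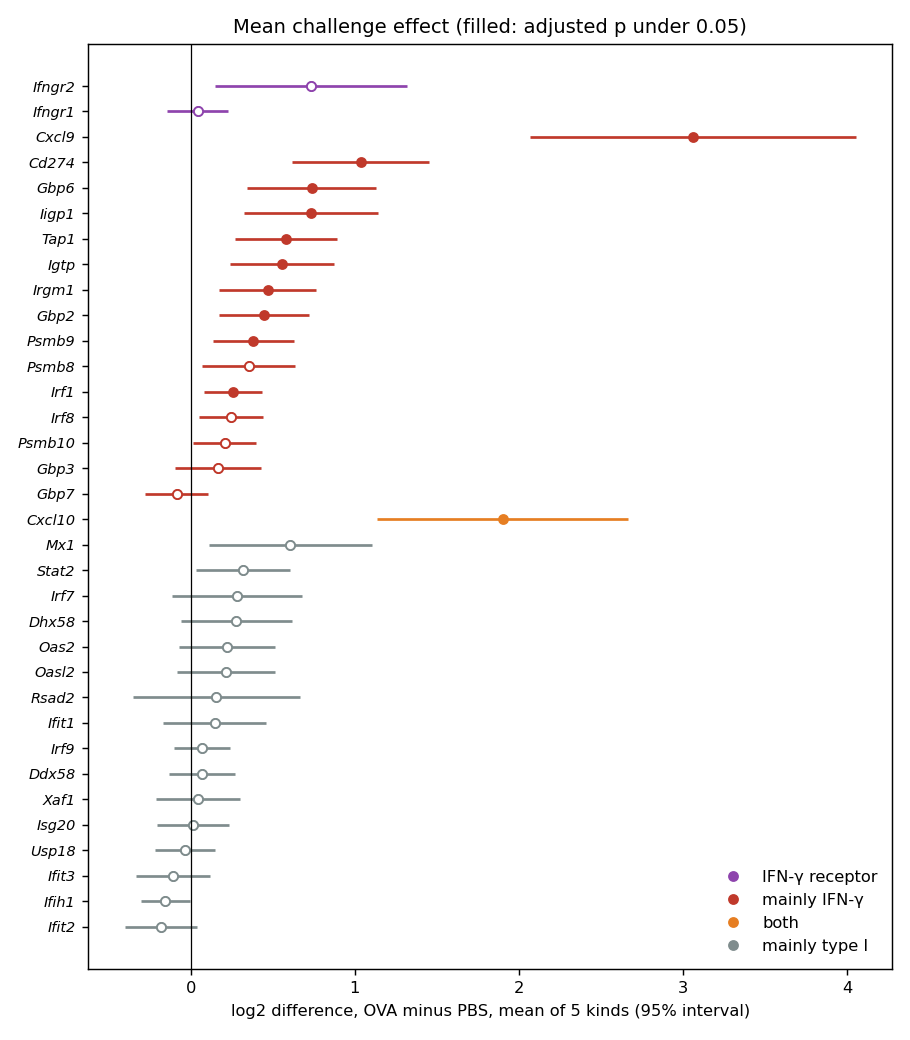
Log2 difference between OVA and PBS lungs averaged over the 5 kinds of mice (x axis) for the 34 tested genes (rows, grouped by list), with 95% intervals as lines and called genes as filled points. Cxcl9 at 3.06 and Cxcl10 at 1.90 lie farthest to the right, and none of the type I targets is filled.

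The chemokines moved most. Cxcl9 and Cxcl10 encode ligands of the receptor CXCR3 that draw activated T cells into tissue. Cxcl9 was higher in OVA lungs by 3.06 ± 0.48 on the log2 scale (SE; adjusted p = 7.29e-05), and Cxcl10 by 1.90 ± 0.37 (adjusted p = 0.000619). By array, Cxcl9 read 10.48, 9.73, 8.71 and 6.13 in WT OVA lungs, against 5.57, 2.96, 6.40 and 5.58 in WT PBS lungs. In KitWsh mice it read 8.61, 9.67, 6.84 and 9.87 in OVA lungs and 7.04, 4.34 and 6.15 in PBS lungs. These groups overlapped through 1 low OVA array in each kind, KitWsh array 3 and the library labelled WT array 4, whose Kit level and Y-linked transcripts go against that label. In KitWsh_MC mice Cxcl9 read 8.43, 8.52, 7.98 and 8.98 in OVA lungs and 4.42, 4.46 and 4.33 in PBS lungs, with no overlap. KitWsh_MCifngR lungs had 5.63, 8.49, 9.50 and 10.90 under OVA and 7.49, 5.89 and 7.23 under PBS. KitWsh_MCigeR lungs had 10.98, 7.86, 8.49 and 10.02 under OVA and 8.22 and 4.59 under PBS. In the last 2 kinds the groups overlapped, with the lowest OVA arrays at 5.63 and 7.86. All KitWsh_MC PBS arrays lay under log2 5, so the rise there was at least 11.1-fold, and in that kind it was called in all 11 alternatives.

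Cxcl10 followed the same arrays. WT lungs gave 9.89, 7.93, 7.92 and 5.51 under OVA and 6.34, 5.40, 6.20 and 5.61 under PBS, and KitWsh lungs gave 7.55, 8.50, 6.17 and 8.62 under OVA and 6.26, 5.07 and 5.71 under PBS. KitWsh_MC lungs gave 8.47, 7.14, 7.56 and 8.20 under OVA and 5.40, 5.28 and 5.26 under PBS, without overlap. In all other kinds 1 or more OVA arrays lay within or under the PBS range. For KitWsh_MCifngR mice the values were 5.33, 6.98, 7.75 and 9.50 in OVA lungs and 6.28, 6.16 and 6.09 in PBS lungs. For KitWsh_MCigeR mice they were 10.49, 6.60, 7.48 and 8.74 in OVA lungs and 6.85 and 6.17 in PBS lungs. In both, the spread among OVA lungs was wide, reaching from 5.33 to 9.50 and from 6.60 to 10.49.

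**Figure D2:**
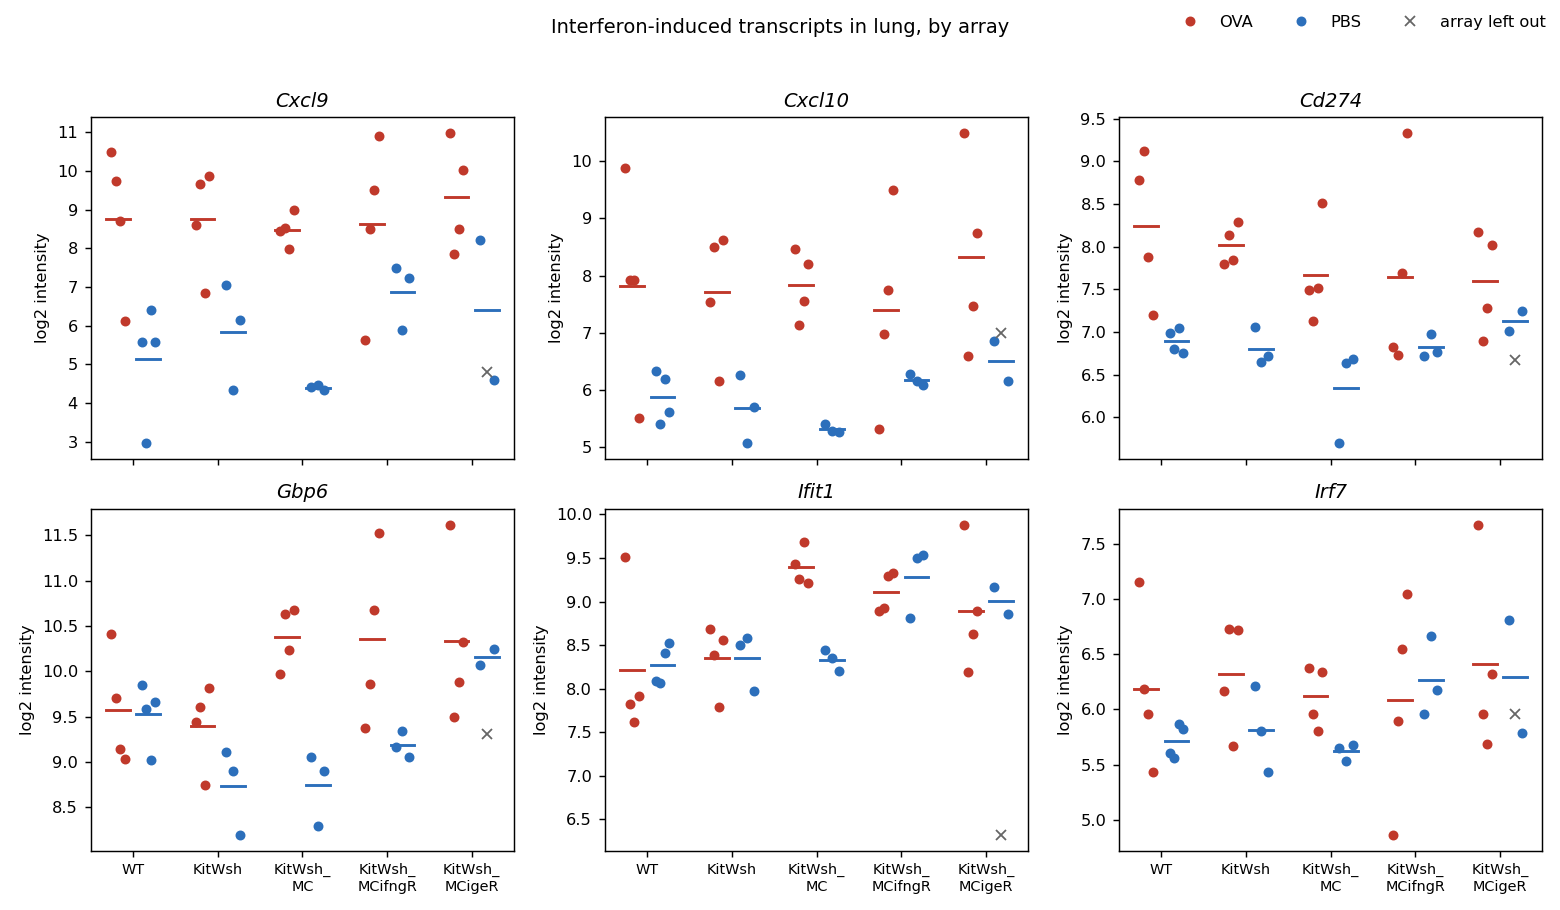
Log2 intensity (y axis) of 6 genes on each array, by kind of mouse, with OVA arrays in red left of PBS arrays in blue, group means as bars and the array left out as a grey cross. Cxcl9 and Cxcl10 spread over several log2 units among OVA arrays, while Ifit1 was called in KitWsh_MC mice and in no other kind.

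Cd274 encodes PD-L1, the ligand that restrains T cells through PD-1. It was higher in OVA lungs by 1.04 ± 0.20 (adjusted p = 0.000624), and its OVA mean was above its PBS mean in all 5 kinds. WT lungs read 8.78, 9.12, 7.87 and 7.20 under OVA, against 6.99, 6.79, 7.05 and 6.75 under PBS, and KitWsh lungs read 7.80, 8.13, 7.85 and 8.29 under OVA, against 7.06, 6.64 and 6.71 under PBS. In KitWsh_MC mice the values were 7.49, 7.13, 7.52 and 8.51 in OVA lungs and 5.69, 6.63 and 6.68 in PBS lungs. The groups did not overlap in any of these 3 kinds. In KitWsh_MCifngR lungs the values were 6.83, 6.72, 7.69 and 9.33 under OVA and 6.72, 6.97 and 6.77 under PBS. In KitWsh_MCigeR lungs they were 8.18, 6.90, 7.28 and 8.02 under OVA and 7.00 and 7.25 under PBS, and in both of these kinds the groups overlapped.

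The GTPases defend the cell interior against vacuolar pathogens, in 2 families. Of the guanylate-binding proteins, Gbp6 rose by 0.74 ± 0.19 (adjusted p = 0.00572) and Gbp2 by 0.45 ± 0.13 (adjusted p = 0.0146). Gbp3 at 0.17 ± 0.13 and Gbp7 at -0.09 ± 0.09 were not called. The probe set of Gbp2 is of the type that can match related sequences, and the family is closely similar, so its value is uncertain as to the member. All 3 immunity-related GTPases rose: Iigp1 by 0.73 ± 0.20 (adjusted p = 0.0076), Igtp by 0.55 ± 0.15 (adjusted p = 0.00906) and Irgm1 by 0.47 ± 0.14 (adjusted p = 0.0173).

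Among these, Gbp6 was called in 1 kind, KitWsh_MC. WT lungs gave 10.41, 9.70, 9.15 and 9.03 under OVA and 9.85, 9.59, 9.03 and 9.67 under PBS, with overlap. KitWsh_MC lungs gave 9.97, 10.64, 10.23 and 10.68 under OVA and 9.06, 8.29 and 8.90 under PBS, and KitWsh_MCifngR lungs gave 9.37, 9.86, 10.67 and 11.53 under OVA and 9.17, 9.34 and 9.06 under PBS. Neither of the last 2 pairs overlapped. KitWsh lungs read 9.44, 9.61, 8.74 and 9.81 under OVA and 9.11, 8.91 and 8.19 under PBS, and KitWsh_MCigeR lungs read 11.62, 9.49, 9.89 and 10.32 under OVA and 10.07 and 10.25 under PBS. Both pairs overlapped.

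Gbp2 was abundant in all groups. Its values were 12.06, 11.52, 11.15 and 10.76 in WT OVA lungs and 11.38, 11.29, 11.06 and 11.06 in WT PBS lungs. They were 11.33, 11.18, 10.89 and 11.60 in KitWsh OVA lungs and 10.81, 10.79 and 10.64 in KitWsh PBS lungs, without overlap. They were 11.68, 11.88, 11.21 and 11.74 in KitWsh_MC OVA lungs and 10.76, 10.58 and 10.74 in KitWsh_MC PBS lungs, again without overlap. KitWsh_MCifngR lungs read 11.23, 10.76, 11.43 and 12.18 under OVA and 10.90, 11.13 and 10.80 under PBS, and KitWsh_MCigeR lungs read 12.23, 10.87, 10.84 and 11.70 under OVA and 11.08 and 11.43 under PBS, both with overlap.

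Igtp, which carries both patterns in the stretch printed above, read 11.29, 10.12, 9.94 and 10.14 in WT OVA lungs and 10.03, 9.41, 9.23 and 9.98 in WT PBS lungs. KitWsh lungs had 10.38, 10.66, 9.93 and 10.49 under OVA and 9.77, 10.11 and 9.57 under PBS, and KitWsh_MC lungs had 10.32, 10.58, 10.49 and 10.84 under OVA and 9.91, 9.26 and 9.65 under PBS. Of these 3 kinds only KitWsh_MC showed no overlap. The values were 10.15, 10.12, 10.91 and 11.38 in KitWsh_MCifngR OVA lungs and 10.02, 10.30 and 10.03 in KitWsh_MCifngR PBS lungs, and 11.51, 9.83, 10.07 and 11.03 in KitWsh_MCigeR OVA lungs and 10.45 and 10.71 in KitWsh_MCigeR PBS lungs. Both of these pairs overlapped.

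Of the antigen-processing genes, Tap1, a subunit of the peptide transporter that loads class I molecules, rose by 0.58 ± 0.15 (adjusted p = 0.0061), and Psmb9, an immunoproteasome subunit, by 0.38 ± 0.12 (adjusted p = 0.0204). The call of Psmb9 was lost without KitWsh_MCigeR PBS array 3. The other immunoproteasome subunits, Psmb8 at 0.35 ± 0.14 (adjusted p = 0.0559) and Psmb10 at 0.21 ± 0.09 (adjusted p = 0.0977), were not called. Tap1 read 9.62, 9.34, 8.80 and 8.54 in WT OVA lungs, against 8.25, 7.84, 8.01 and 8.63 in WT PBS lungs, and overlapped. KitWsh lungs had 9.61, 9.59, 8.85 and 9.83 under OVA and 8.33, 8.83 and 8.24 under PBS. KitWsh_MC lungs had 9.45, 9.78, 9.23 and 9.78 under OVA and 8.53, 8.62 and 8.69 under PBS. All OVA arrays of these 2 kinds lay above their PBS arrays. KitWsh_MCifngR lungs ran the other way on average, at 8.31, 8.28, 8.70 and 9.95 under OVA and 8.89, 9.23 and 9.40 under PBS. KitWsh_MCigeR lungs read 9.93, 9.01, 8.51 and 9.29 under OVA and 9.14 and 8.38 under PBS. Both pairs overlapped.

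The transcription factors moved little. Irf1, which relays the IFN-γ signal, was higher in OVA lungs by 0.26 ± 0.09 (adjusted p = 0.027), the smallest of the 11 called differences, and lost its call without KitWsh_MC PBS array 1 or KitWsh_MCigeR PBS array 3. Its values were 10.59, 10.35, 10.09 and 10.24 in WT OVA lungs and 9.68, 9.63, 9.53 and 10.31 in WT PBS lungs. KitWsh lungs gave 10.54, 10.27, 10.02 and 10.49 under OVA and 10.24, 10.28 and 10.17 under PBS, and KitWsh_MC lungs gave 10.38, 10.69, 10.04 and 10.70 under OVA and 9.80, 10.20 and 10.16 under PBS. Each of these pairs overlapped. KitWsh_MCifngR lungs gave 10.08, 10.28, 10.56 and 10.73 under OVA and 10.53, 10.56 and 10.52 under PBS, and KitWsh_MCigeR lungs gave 10.64, 10.29, 10.18 and 10.65 under OVA and 10.14 and 9.99 under PBS. In the KitWsh_MCigeR pair no OVA array reached down to the PBS arrays. Irf8, a myeloid factor, stood at 0.25 ± 0.10 (adjusted p = 0.0556).

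Irf7, which amplifies the type I response, was not called (difference 0.28 ± 0.19, adjusted p = 0.284). It read 7.16, 6.19, 5.96 and 5.44 in WT OVA lungs and 5.60, 5.56, 5.87 and 5.82 in WT PBS lungs. KitWsh lungs had 6.17, 6.73, 5.67 and 6.72 under OVA and 6.21, 5.81 and 5.44 under PBS, and KitWsh_MC lungs had 6.38, 5.96, 5.81 and 6.34 under OVA and 5.65, 5.53 and 5.68 under PBS. Only the KitWsh_MC groups did not overlap. KitWsh_MCifngR lungs had 4.86, 5.90, 6.55 and 7.05 under OVA and 5.96, 6.67 and 6.17 under PBS, and KitWsh_MCigeR lungs had 7.68, 5.96, 5.68 and 6.32 under OVA and 6.81 and 5.79 under PBS. Stat2 and Irf9, partners in the type I complex, differed by 0.32 ± 0.14 and 0.07 ± 0.08 (adjusted p = 0.0915 and 0.569).

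The antiviral effectors were not called in the mean over kinds. Ifit1, which binds viral RNA, differed by 0.14 ± 0.15 (95% interval -0.17 to 0.46), and Oas2, an oligoadenylate synthetase that activates RNA decay, by 0.22 ± 0.14 (95% interval -0.07 to 0.51). Ifit2 stood at -0.18 ± 0.11, Ifit3 at -0.11 ± 0.11 and Oasl2 at 0.22 ± 0.15. The RNA sensors Ifih1, Ddx58 and Dhx58 stood at -0.15 ± 0.07, 0.07 ± 0.10 and 0.28 ± 0.17. Rsad2, an enzyme that blocks viral replication, stood at 0.16 ± 0.25, Isg20, an exonuclease, at 0.01 ± 0.11, Usp18, which dampens the type I receptor, at -0.03 ± 0.09, and Xaf1, a pro-apoptotic factor, at 0.04 ± 0.13. Mx1, an antiviral GTPase, stood highest of the type I targets at 0.61 ± 0.24 (adjusted p = 0.0617, and 0.0485 with all 36 arrays), from values between 2.23 and 5.94 near the floor of the array.

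Within KitWsh_MC mice Ifit1 and Oas2 were called higher, with calls that rest on few arrays. The call of Ifit1 was lost with all 36 arrays (adjusted p = 0.18) and without KitWsh_MC PBS array 2 or 3. That of Oas2 was lost without KitWsh_MC OVA array 2, which had the highest beta-actin difference, or without KitWsh_MC PBS array 3. Ifit1 read 9.43, 9.26, 9.68 and 9.22 in KitWsh_MC OVA lungs, against 8.44, 8.35 and 8.20 in KitWsh_MC PBS lungs, and Oas2 read 7.51, 8.20, 7.32 and 7.81 in KitWsh_MC OVA lungs, against 6.76, 6.75 and 6.38 in KitWsh_MC PBS lungs. Neither pair overlapped. In WT mice Ifit1 read 9.51, 7.82, 7.62 and 7.92 in OVA lungs and 8.09, 8.07, 8.41 and 8.52 in PBS lungs, and in KitWsh mice 8.68, 8.38, 7.78 and 8.56 in OVA lungs and 8.50, 8.58 and 7.97 in PBS lungs. It read 8.89, 8.92, 9.30 and 9.33 and 8.81, 9.50 and 9.53 in OVA and PBS lungs of KitWsh_MCifngR mice, and 9.88, 8.19, 8.62 and 8.89 and 9.16 and 8.86 in those of KitWsh_MCigeR mice. These 4 pairs overlapped, and WT OVA array 1 and KitWsh_MCigeR OVA array 1 were the highest of all arrays of their kind.

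Oas2 read 7.70, 6.89, 6.11 and 6.43 in WT OVA lungs and 6.31, 6.22, 5.92 and 6.97 in WT PBS lungs. In KitWsh mice the OVA lungs, at 6.88, 6.45, 6.82 and 7.06, all lay under the PBS lungs, at 7.26, 7.11 and 7.12, with no call. KitWsh_MCifngR lungs had 7.16, 7.83, 7.89 and 7.85 under OVA and 7.49, 8.23 and 7.59 under PBS, and KitWsh_MCigeR lungs had 8.11, 6.86, 6.76 and 6.93 under OVA and 7.31 and 6.95 under PBS. Both of these pairs overlapped.

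The IFN-γ receptor chains were measured in whole lung. Ifngr1, the ligand-binding chain, differed by 0.04 ± 0.09 between OVA and PBS lungs over the 5 kinds (adjusted p = 0.769). It read 9.32, 9.10, 9.44 and 9.08 in WT OVA lungs and 9.27, 9.22, 9.28 and 8.53 in WT PBS lungs, and 9.15, 9.76, 9.79 and 9.72 in KitWsh OVA lungs and 9.78, 10.09 and 9.69 in KitWsh PBS lungs. KitWsh_MC lungs had 9.60, 8.89, 8.74 and 9.20 under OVA and 9.26, 8.78 and 9.33 under PBS, and KitWsh_MCifngR lungs had 9.75, 9.86, 9.70 and 9.54 under OVA and 9.62, 9.67 and 9.61 under PBS. The KitWsh_MCifngR lungs did not lie below the others, and a whole-lung level does not check that label, since the cells of the mouse itself keep the receptor. KitWsh_MCigeR lungs had 9.75, 9.56, 9.38 and 9.23 under OVA and 9.29 and 9.21 under PBS. Ifngr2, the signalling chain, was higher on average in OVA lungs in all 5 kinds, with a mean difference of 0.73 ± 0.29 that was not called (adjusted p = 0.0557), against an adjusted p of 0.0432 with all 36 arrays.

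Kind by kind, the counts were smaller, and in WT, KitWsh and KitWsh_MC mice they changed when single arrays were left out. In WT mice 3 of 34 genes were called between OVA and PBS lungs, against 9.37% of all genes (4.01% higher and 5.36% lower): Cxcl9 (3.64 ± 0.99, adjusted p = 0.023) and Cd274 (1.35 ± 0.42, adjusted p = 0.0394) were higher and Ifih1 (-0.47 ± 0.15, adjusted p = 0.0439) was lower. With all 36 arrays 0 were called, against 1.37% of all genes. Without the library labelled WT OVA array 4, 8 were called, and without WT OVA array 1, WT OVA array 2 or WT PBS array 2, 0 were. The median difference was 0.50 over the IFN-γ targets and 0.01 over the type I targets, against -0.03 over all genes, and without the library labelled WT OVA array 4 it was 0.56 and 0.08. The WT share called was near the background share.

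In KitWsh mice, which have no mast cells, 2 of 34 genes were called higher, against 1.41% of all genes called higher and 6.57% in either direction: Irgm1 (1.06 ± 0.32, adjusted p = 0.0442) and Irf9 (0.59 ± 0.18, adjusted p = 0.0497). Next was Tap1 (1.00 ± 0.34, adjusted p = 0.0639). With all 36 arrays 0 were called, against 0.631% of all genes, and leaving out any of KitWsh OVA arrays 2 and 4 or any KitWsh PBS array also left 0. All 15 IFN-γ targets had a higher mean in OVA than in PBS lungs, with a median difference of 0.67, against 0.32 over the type I targets and -0.10 over all genes. In 8 of the 15 the OVA arrays lay wholly above the PBS arrays, as they did for 7.53% of all genes. Of the type I targets 0 did so, and in 2 the OVA arrays lay wholly below the PBS arrays, as they did for 18% of all genes.

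In KitWsh_MC mice 9 of 34 genes were called, all higher, against 20.5% of all genes called in either direction and 10.7% called higher. They were Cxcl9 (4.08 ± 1.07, adjusted p = 0.00863, a fitted value that is no bound since its PBS arrays lay under log2 5), Cxcl10 (2.53 ± 0.83, adjusted p = 0.0298), Gbp6 (1.63 ± 0.42, adjusted p = 0.00805), Cd274 (1.33 ± 0.45, adjusted p = 0.0361), Oas2 (1.09 ± 0.32, adjusted p = 0.0164), Ifit1 (1.06 ± 0.34, adjusted p = 0.0257), Igtp (0.96 ± 0.34, adjusted p = 0.0458), Tap1 (0.94 ± 0.34, adjusted p = 0.0455) and Gbp2 (0.94 ± 0.30, adjusted p = 0.0254). Of the 9, 6 were IFN-γ targets, a list whose median over all 15 was 0.53, against 0.30 over the type I targets and 0.01 over all genes. With all 36 arrays 3 were called, against 6.51% of all genes, and without KitWsh_MC PBS array 2 or array 3 only 2 were. Without KitWsh_MC OVA array 2, whose beta-actin difference of 6.23 was the highest of the 35, 6 were called.

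In KitWsh_MCifngR mice 0 of 34 genes were called, against 0.778% of all genes, and 3 had an unadjusted p under 0.05, with limma, and with all 36 arrays 0 were called as well, against 0.156% of all genes. The smallest adjusted p belonged to Gbp6 (1.17 ± 0.42, adjusted p = 0.228), Irgm1 (0.78 ± 0.32, adjusted p = 0.309) and Isg20 (0.54 ± 0.24, adjusted p = 0.347). The median difference was 0.04 over the IFN-γ targets and 0.14 over the type I targets, against 0.00 over all genes. These values rest in part on OVA arrays 2 and 3, which go against their labels. Without the 3 such arrays of the study the median was 0.50 over the IFN-γ targets, of which 13 of 15 had a higher mean in OVA lungs. It was then 0.14 over the type I targets and 0.04 over all genes, with 0 members called. Only OVA arrays 1 and 4 of this kind then remain, and their IFN-γ medians relative to the PBS mean were -0.03 and 1.10. Their 3′ minus 5′ differences of the GAPDH control were 7.52, the highest of the 35 arrays, and 5.69. On the omitted OVA arrays 2 and 3 they were 1.28 and 2.25, so the remaining arrays are not of better RNA quality by this control. In KitWsh_MCigeR mice 0 of 34 genes were called by limma, as were 0% of all genes, and 2 members had an unadjusted p under 0.05. Cxcl9 stood at 2.94 ± 1.21 (adjusted p = 0.7) and Irf9 at -0.44 ± 0.21 (adjusted p = 0.776), with only 2 PBS arrays. The median difference was 0.17 over the IFN-γ targets, of which 12 of 15 were higher in OVA lungs, and -0.06 over the type I targets, against 0.01 over all genes. With all 36 arrays, which add the failed array to the PBS group, 6 were called higher, 19.1% of all genes were called, and the medians were 0.81 and 0.23, against 0.39 over all genes. The 5 responses differ in their number of arrays, and a gene called in one and not in another is not thereby shown to differ.

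**Figure D3:**
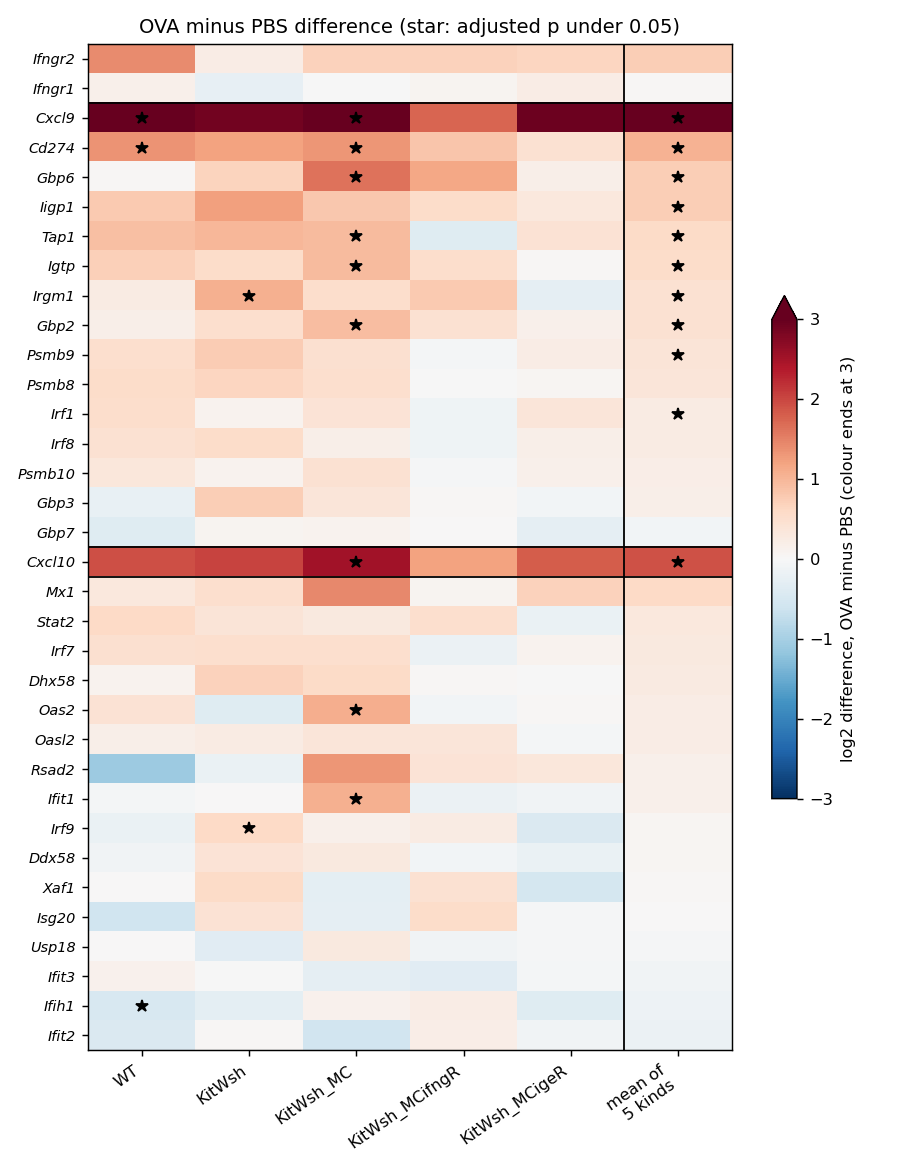
Log2 difference between OVA and PBS lungs (colour, red for higher in OVA lungs) for each of the 34 tested genes (rows, receptors at the top, then IFN-γ targets, Cxcl10 and type I targets) in the 5 kinds of mice and averaged over them (columns), with a star where the gene was called. Of the 15 IFN-γ rows, 13 are above 0 in WT, 15 in KitWsh, 15 in KitWsh_MC, 9 in KitWsh_MCifngR and 12 in KitWsh_MCigeR mice, and the KitWsh_MC column holds 9 stars.

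The responses of the kinds were compared directly as differences of differences, which ask whether the OVA minus PBS difference of a gene differs between kinds of mice. No response contrast with KitWsh_MCigeR mice was made, and KitWsh and WT mice differ in the Kit allele as well as in mast cells. By limma 0 of the 34 genes were called in each of the 4 contrasts, as with all 36 arrays. For KitWsh minus WT, 0.182% of all genes were called (0.00865% with all 36 arrays) and 3 members had an unadjusted p under 0.05, led by Isg20 (1.03 ± 0.32, adjusted p = 0.136), Irf9 (0.80 ± 0.25, adjusted p = 0.14) and Gbp3 (0.97 ± 0.39, adjusted p = 0.249). For KitWsh_MC minus KitWsh, 5.53% of all genes were called (0.562% with all 36 arrays), all genes shifted by a median of 0.11, and 5 members had an unadjusted p under 0.05. Nearest to a call was Oas2 (1.44 ± 0.45, adjusted p = 0.0524), followed by Xaf1 (-0.88 ± 0.39, adjusted p = 0.176) and Usp18 (0.62 ± 0.28, adjusted p = 0.178). These contrasts share the KitWsh arrays.

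For KitWsh_MC minus WT, 0.545% of all genes were called (0.0692% with all 36 arrays) and 4 members had an unadjusted p under 0.05, with Rsad2 (2.42 ± 0.75, adjusted p = 0.133), Gbp6 (1.59 ± 0.58, adjusted p = 0.216) and Ifih1 (0.60 ± 0.22, adjusted p = 0.223) first. For KitWsh_MCifngR minus KitWsh_MC, 1.49% of all genes were called (0.0346% with all 36 arrays) and 5 members had an unadjusted p under 0.05, with Tap1 (-1.31 ± 0.48, adjusted p = 0.12), Oas2 (-1.17 ± 0.45, adjusted p = 0.136) and Ifit1 (-1.23 ± 0.48, adjusted p = 0.14) first. In that contrast 14 of the 15 IFN-γ targets had a negative difference, with a median of -0.48, against -0.22 over the type I targets and -0.01 over all genes. Without the 3 arrays that go against their labels, of which 2 are KitWsh_MCifngR OVA arrays, 12 of the 15 were negative. The medians were then -0.18 and -0.14, against 0.03 over all genes, with only OVA arrays 1 and 4 left in KitWsh_MCifngR mice. Leaving out KitWsh_MCifngR OVA array 4 gave 1 call. The 2 contrasts share the KitWsh_MC arrays.

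Among challenged lungs, KitWsh_MC differed from KitWsh in 8 of 34 genes, against 31.6% of all genes, and only the type I effectors Ifit1 (1.05 ± 0.31) and Oas2 (0.91 ± 0.29) were higher. Ifngr1 (-0.50 ± 0.18), Irf8 (-0.82 ± 0.20), Stat2 (-0.80 ± 0.29), Isg20 (-0.77 ± 0.22), Ifit2 (-0.74 ± 0.22) and Ddx58 (-0.64 ± 0.20) were lower, with limma's adjusted p between 0.0028 and 0.0381 over the 8. Without KitWsh_MC OVA array 2 only 2 were called, with the beta-actin difference as a covariate also 2, and with all 36 arrays 1 (8.87% of all genes). The share called was below that of all genes. Of the other pathway genes, those of smallest adjusted p were Ptpn2, called higher (1.40 ± 0.23), and B2m, Gbp8, Ccl5 and Jak1. B2m (-0.89 ± 0.17), Gbp8 (-1.56 ± 0.32), Ccl5 (-1.66 ± 0.35) and Jak1 (-1.52 ± 0.36) were called lower. Ptpn2 and Ccl5 were also called with all 36 arrays, and B2m, Gbp8 and Jak1 were not. In the same comparison 3 of 8 T and natural killer cell markers were called lower, Klrk1 (-1.38 ± 0.31), Cd3g (-1.57 ± 0.49) and Nkg7 (-0.87 ± 0.34). Of 7 lung markers only Pecam1 (-1.97 ± 0.45) was called, lower, and not with all 36 arrays (limma's adjusted p = 0.175). Cldn5, the other endothelial gene among the 7, was not called. Of 11 macrophage and monocyte markers Marco (2.44 ± 0.64) was called higher and Siglecf (-1.26 ± 0.29) lower, and 4 of 6 mast cell markers were called higher. Klrk1, Marco, Siglecf and the 4 mast cell markers were also called with all 36 arrays. Their part in the differences above was not tested.

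KitWsh_MCifngR differed from KitWsh_MC among challenged lungs in 4 of 34 genes, all higher, against 36.8% of all genes: Ifih1 (0.62 ± 0.15, adjusted p = 0.00232), Ifit2 (0.84 ± 0.22, adjusted p = 0.00412), Ifngr1 (0.60 ± 0.18, adjusted p = 0.011) and Isg20 (0.65 ± 0.22, adjusted p = 0.0211). All genes shifted by a median of 0.18 in this comparison. With each array centred on its median, or quantile-normalised, 2 genes were called higher and 1 lower, and Ifngr1 and Isg20 were no longer called. Without the 3 arrays that go against their labels 2 were called, and with all 36 arrays 2 (13.2% of all genes). KitWsh_MCigeR differed from KitWsh_MC in 2 of 34 genes, against 21% of all genes: Isg20 was higher (0.72 ± 0.22, adjusted p = 0.0197) and Rsad2 lower (-1.47 ± 0.51, adjusted p = 0.0384), while Ifit2 followed (0.45 ± 0.22, adjusted p = 0.136). Both calls were lost with all 36 arrays, which called 2.93% of all genes, and with the beta-actin difference as a covariate, which turned the median over the 34 genes to -0.02, against 0.18 without it. In addition, 0 were left without KitWsh_MC OVA array 2 or KitWsh_MCigeR OVA array 4. These 3 comparisons share the KitWsh_MC OVA arrays.

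Without challenge, KitWsh differed from WT in 3 of 34 genes, against 7.96% of all genes. Ifngr1 was higher in KitWsh PBS lungs (0.78 ± 0.20, adjusted p = 0.016), and Irf9 (-0.59 ± 0.18, adjusted p = 0.044) and Isg20 (-0.74 ± 0.24, adjusted p = 0.0487) were lower. With all 36 arrays, which called 1.18% of all genes, or without KitWsh PBS array 2, 0 were called, and without WT PBS array 4, where Ifngr1 was lowest, 6 were.

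The OVA lungs of 1 kind differed widely among themselves, and their highest array was the same in both lists. Taking each gene relative to the PBS mean of its kind, the median of the IFN-γ targets was above 0 on 15 of 20 OVA arrays and that of the type I targets on 12 of 20. The IFN-γ median exceeded the type I median on 18 of 20. In WT OVA lungs the IFN-γ median ran from 0.28 to 0.92 on arrays 1 to 3 and was -0.17 on the library labelled array 4, which goes against its label. In KitWsh_MCifngR OVA lungs it was -0.03 on array 1 and 1.10 on array 4, and -0.26 and 0.03 on arrays 2 and 3, which also go against theirs. KitWsh_MC OVA lungs spanned the least, from 0.52 to 0.91. KitWsh OVA lungs ran from 0.26 to 0.99 and KitWsh_MCigeR OVA lungs from -0.29 to 0.82. In all 5 kinds the OVA array highest in the IFN-γ list was also highest in the type I list and in Cxcl9, itself in the IFN-γ list. The lowest array was shared by both lists in WT and KitWsh_MCigeR mice only. In KitWsh mice it was array 3 for the IFN-γ list (0.26) and array 1 for the type I list (-0.02). In KitWsh_MC mice it was array 3 (0.52) and array 2 (0.06), and in KitWsh_MCifngR mice array 2 (-0.26) and array 1 (-0.08). Genes read on 1 array share its RNA and its processing, so this is a description of arrays, with no test.

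**Figure D4:**
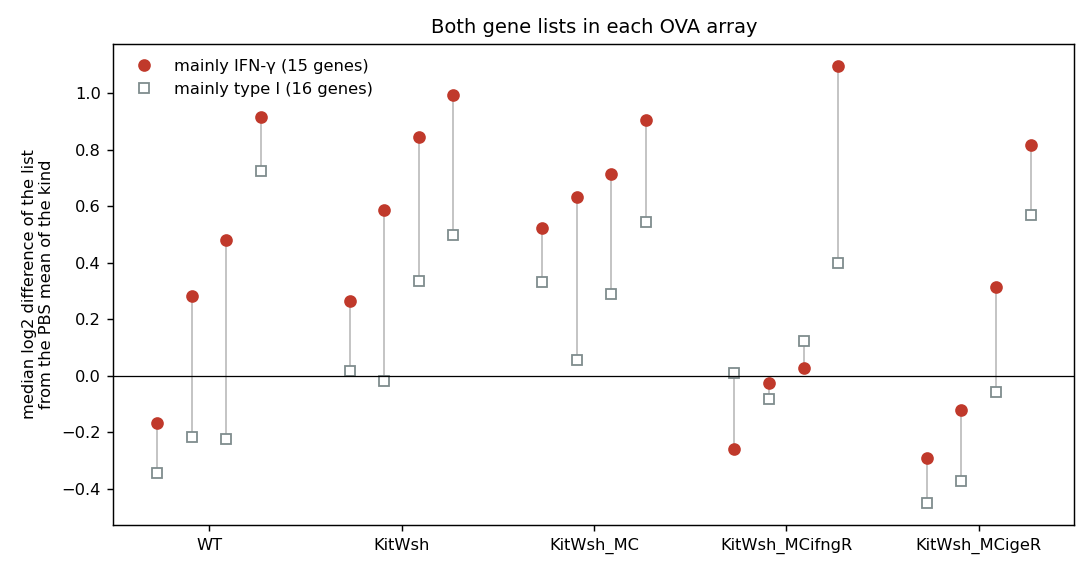
Median log2 difference from the PBS mean of the kind (y axis) over 15 IFN-γ targets (red circles) and 16 type I targets (open squares) on each of the 20 OVA arrays, by kind of mouse (x axis, arrays in order of the IFN-γ median), with a line joining both medians of an array. The circle lies above the square on 18 of 20 arrays.

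The interferons themselves gave no readable level. Ifng lay between 2.19 and 4.12 on the 35 arrays, Ifnb1 between 2.19 and 2.72, and Ifna4 at 2.19 on all of them, where values of this array have no order. Of 10 other receptor and signalling genes of the pathway, 4 were called higher in the mean over kinds and 0 lower. Of 9 other interferon and inducer genes 3 were called higher and 1 lower, and of 33 other targets 11 higher and 1 lower. Among all genes 12.2% were called higher and 15.4% lower. With all 36 arrays the counts were 2 and 0, 3 and 0, and 2 and 1, against 16.6% of all genes in either direction. Those with the smallest adjusted p were Ifi203, an interferon-inducible DNA-binding family member (-0.54 ± 0.10, adjusted p = 0.000567), Socs3, a cytokine signalling inhibitor (0.65 ± 0.13, adjusted p = 0.000573), and Sting1, the adaptor of cytosolic DNA sensing (0.78 ± 0.16, adjusted p = 0.000774), which were called with all 36 arrays too. Tapbp, which helps load class I molecules (0.36 ± 0.10, adjusted p = 0.00748), and Tlr3, a sensor of double-stranded RNA (-0.27 ± 0.07, adjusted p = 0.0088), were not called with all 36 arrays (adjusted p = 0.1 and 0.516). In WT mice Tap2 (0.90 ± 0.25), Tapbp (0.70 ± 0.20) and Irf3 (0.51 ± 0.17) were called higher and Cmpk2 lower (-0.66 ± 0.21), and all 4 calls were lost with all 36 arrays (adjusted p between 0.546 and 0.733). The same held in KitWsh mice for Ccl5 (1.55 ± 0.38, adjusted p = 0.214 with all 36 arrays) and Socs3 (1.05 ± 0.28, adjusted p = 0.0948). In KitWsh_MC mice Socs3 was called higher (1.19 ± 0.28) and Ifi203 lower (-1.33 ± 0.23) with 35 and with 36 arrays. There Ptpn2 (1.12 ± 0.25), Zbp1 (1.63 ± 0.49) and Bst2 (1.24 ± 0.38) were called higher with 35 arrays and not with 36 (adjusted p = 0.0535, 0.0546 and 0.443). None was called in KitWsh_MCifngR or KitWsh_MCigeR mice.

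Markers of immune cells moved in the same comparisons, and in whole lung more cells of a type and more RNA per cell cannot be told apart. In the mean over kinds, where 12.2% of all genes were called higher and 15.4% lower, 7 of 11 macrophage and monocyte markers were higher and 1 lower. Of 4 dendritic cell markers 2 were called higher, and of 6 mast cell markers 4. Of 8 T and natural killer cell markers 1 was higher, Nkg7, and 1 lower, Gzma. Of 4 B cell markers 1 was higher, Cd79a (0.72 ± 0.25). With all 36 arrays, which called 16.6% of all genes, the counts were the same apart from Gzma, which was not called (adjusted p = 0.153). None of the 4 tested neutrophil markers was called with 35 arrays. Their median sum, on the linear scale, was lower in OVA than in PBS lungs of WT (5978 and 8110), KitWsh_MC (9277 and 13084) and KitWsh_MCigeR mice (4560 and 10612). It was higher in those of KitWsh (12446 and 11260) and KitWsh_MCifngR mice (14504 and 5865). In KitWsh mice Cd8a (1.13 ± 0.29), Nkg7 (1.19 ± 0.36), Cd79a (2.20 ± 0.55) and Siglecf (1.30 ± 0.32) were called higher with 35 arrays and not with 36. The other T, natural killer and B cell markers were not called there. All 4 B cell markers had a higher mean in KitWsh OVA lungs, with a median difference of 1.19. All 15 IFN-γ targets had a higher OVA mean in both KitWsh and KitWsh_MC mice. In KitWsh_MC mice, where 20.5% of all genes were called, no T, natural killer or B cell marker was called. Of macrophage and monocyte markers, Gpnmb (3.41), Marco (2.64), Trem2 (2.55), Ms4a7 (2.41), Mrc1 (1.64) and Adgre1 (1.20) were called higher there. Siglecf (-1.38) was called lower. Of dendritic cell markers, Itgax (1.56) and Flt3 (1.20) were higher and Zbtb46 (-0.57) lower. The mast cell markers Cma1, Cpa3, Tpsb2 and Hdc were also higher. Mrc1, Itgax, Zbtb46 and Hdc lost their calls with all 36 arrays. Summed macrophage and monocyte markers, on the linear scale, ran from 4829 to 13407 in WT OVA lungs, against 5702 to 6453 in WT PBS lungs. They ran from 5266 to 7818 in KitWsh OVA lungs, against 4203 to 5494 in KitWsh PBS lungs, and from 5192 to 11377 in KitWsh_MC OVA lungs, against 4771 to 5509 in KitWsh_MC PBS lungs. They ran from 4261 to 14219 in KitWsh_MCifngR OVA lungs, against 4262 to 4797 in KitWsh_MCifngR PBS lungs, and from 5298 to 6945 in KitWsh_MCigeR OVA lungs, against 5516 to 5917 in KitWsh_MCigeR PBS lungs. The highest macrophage and monocyte sum of each kind lay among its OVA lungs, and the groups overlapped in all 5 kinds. Summed T and natural killer markers ran from 752 to 2428 over OVA lungs of the 5 kinds and from 1022 to 2316 over PBS lungs. In KitWsh_MCigeR mice they ran from 1175 to 1581 in OVA lungs, wholly below the 2178 to 2293 of PBS lungs. Cd4, Prf1 and Ncr1 among them, and Xcr1 and Siglech among the dendritic cell markers, stayed under log2 5 on all 35 arrays. In a sum on the linear scale the most abundant genes weigh most. Over the 36 arrays the highest mean log2 among T and natural killer markers was that of Gzma (9.40). Among macrophage and monocyte markers Csf1r (11.32) and Mrc1 (10.41) were highest. Csf1r was the macrophage and monocyte marker called lower in the mean over kinds (-0.20 ± 0.06). The part of cell numbers in the rise of the IFN-γ targets was not tested.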

How the data were processed

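Lung RNA from 10 groups was measured on 1 array per sample. The deposited log2 intensities were made by the authors with GCRMA, per the submitters' processing notes, with no version stated. GCRMA places unexpressed probe sets near a common floor, so low values have no order and fold changes from it are compressed. Differences were fitted to the deposited log2 values with limma 3.58.1 in R 4.3.3 (lmFit and eBayes, a mean for each of 10 groups, 35 arrays, 25 residual degrees of freedom). Of 18193 genes with a probe set of 1 symbol, 11565 passed the filter (log2 over 5 in at least 3 arrays), and p-values were Benjamini-Hochberg adjusted over them, with calls at an adjusted p under 0.05. Of 45101 probe sets, 34958 carried 1 symbol, 932 several and 9211 none. The number of arrays limits the precision, and no depth applies.

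The mean over kinds weighted the 5 OVA minus PBS differences equally. Promoter windows came from RefSeq on GRCm38.p6. Named genes were every called gene where 10 or fewer were called, otherwise the 5 highest and 5 lowest, and with fewer than 3 calls those of smallest adjusted p up to 3. Values by array were given for Cxcl9, Irf1, Gbp2, Irf7, Ifit1, Oas2 and Ifngr1 and for the 5 other genes called in the most OVA over PBS comparisons. Genes named beyond this rule complete the list by role. The members and lists were chosen with earlier results of these data known. The array titles are numbered serially, so replicate numbers pair no samples. Alternatives were all 36 arrays, other filters, averaged probe sets, quantile normalization, median centring, only the compared groups, array weights, the beta-actin covariate, omission of the 3 arrays that go against their labels, and omission of each array. The fit was tested on simulated data.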

Additional observations from a re-analysis of the deposited data

Results flagged for a closer look

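In groups of 4 arrays, the highest or lowest array was marked where its gap to the next, as a share of the group's range, exceeded Dixon's 95% critical value for 4 values. Over the 34 tested genes 17 of 204 groups were marked, and chance gives about 1 in 20, or 10.2. Ifngr2 was marked in 4 groups. It read 3.03 on KitWsh_MC OVA array 2, against 6.89 to 7.00 on the other 3 arrays (gap share 0.972), and was also lowest on KitWsh OVA array 1 (0.944) and on the library labelled WT OVA array 4 (0.832), and highest on KitWsh_MCigeR OVA array 1 (0.937). Ifngr1 was lowest on WT PBS array 4 (0.911), at 8.53 against 9.22 to 9.28, and on KitWsh OVA array 1 (0.890). Ddx58 was lowest on KitWsh OVA array 1 (0.9465) and on KitWsh_MCifngR OVA array 1 (0.946).

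WT OVA array 1 was highest in Igtp (0.852), Ifit1 (0.8405) and Xaf1 (0.884). KitWsh_MCifngR OVA array 1 was also lowest in Isg20 (0.886) and Oas2 (0.914), and KitWsh_MCigeR OVA array 1 was highest in Oas2 (0.879). Xaf1 was lowest on WT PBS array 4 (0.879), Psmb9 highest on WT PBS array 1 (0.887) and Ifih1 lowest on KitWsh_MC OVA array 3 (0.893). The genes of 1 array share its library, so marks on the same array are not separate observations, and the cause was not tested.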

How the results depend on the processing

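Counts are of the 34 tested genes called. A number in brackets after a count gives the calls over all genes tested. These were 11565 genes, or 18193 with no filter and 10153 with averaged probe sets. In the mean over kinds, 11 were called (3189), with 19 under array weights (5750) and 9 to 15 when each array was left out. Irf1 and Psmb9 were the genes that lost their call (Psmb9 without KitWsh_MCigeR PBS array 3). With probe sets averaged 12 were called (2766), without Tap1, which was not tested there. In WT mice 3 were called (1084), against 0 with all 36 arrays (159) and 1 with no filter (767). The compared groups only gave 5 (1335), array weights 19 (5101) and the beta-actin covariate 7 (1704). Without the 3 arrays that go against their labels 8 were called (2190), and 6 without KitWsh_MC OVA array 2 (1586). Single omissions gave 0 to 8. In KitWsh mice 2 were called (760), against 0 with all 36 arrays (73) and with no filter (542), and 0 to 3 over omissions. Averaged probe sets gave 1 there (432), the compared groups only 4 (763) and array weights 20 (4618). In KitWsh_MC mice 9 were called (2376), against 3 with all 36 arrays (753) and 5 with no filter (2160), and 2 to 11 over omissions. KitWsh_MCifngR mice had 0 (90), and 6 with array weights (2027). KitWsh_MCigeR mice had 0 (0), and 6 with all 36 arrays (2208). Both had 0 to 0 over omissions.

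The response contrasts had 0 calls each (21, 639, 63 and 172 in the order below). KitWsh minus WT had 1 with the compared groups only (195) and 8 with array weights (2516). It had 1 with the beta-actin covariate (122), and 0 to 0 over omissions. KitWsh_MC minus KitWsh had 1 with the compared groups only (194) and 4 with array weights (2212), and 0 to 1 over omissions. KitWsh_MC minus WT had 1 with array weights (533) and 0 to 2 over omissions, with 2 without WT OVA array 1. KitWsh_MCifngR minus KitWsh_MC had 7 with array weights (2509) and 0 to 1 over omissions.

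Among OVA lungs, KitWsh_MC over KitWsh had 8 (3657), against 1 with all 36 arrays (1026) and with the compared groups only (553). It had 2 with the beta-actin covariate (1763) and 2 without KitWsh_MC OVA array 2 (2351), and 2 to 13 over omissions. KitWsh_MCifngR over KitWsh_MC had 4 (4253), against 2 with all 36 arrays (1526) and 0 with the compared groups only (453). It had 2 without the 3 arrays that go against their labels (4024), and 3 to 5 over omissions. KitWsh_MCigeR over KitWsh_MC had 2 (2432), against 0 with all 36 arrays (339) or the compared groups only (260). It also had 0 with the beta-actin covariate (796) or without KitWsh_MC OVA array 2 (1091). It had 1 with no filter (2191), averaged probe sets (1683) or array weights (1697), and 0 to 3 over omissions. Among PBS lungs, KitWsh over WT had 3 (920), against 0 with all 36 arrays (137) and 0 to 6 over omissions. It had 1 with no filter (747) and with averaged probe sets (537), 9 with the compared groups only (1871) and 15 with array weights (4856). In these alternatives 0 called genes changed sign. The causes were not tested. No paired analysis was possible because the replicate numbers are serial and pair no samples across groups.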
